A study of Mus musculus with 32 samples.

Results

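S49 (Neo) cells treated with dexamethasone (dex) for 24 h are described here across all genes measured. The members are 8 of the 32 RNA-seq libraries of the series, 4 of cells given 250 nM dex and 4 of cells given vehicle alone (control), chosen by their labels. The S49.1 line grew out of a mouse lymphoma of immature T cells. Its Neo derivative holds a retroviral insert that confers resistance to G418, so control and dex libraries alike have this insert and come from the same transfected line. They were grown in RPMI-1640 medium with fetal calf serum. The other libraries of the series are S49 (Neo) cells at 48 h, with and without dex, and S49 (Bcl-2) cells, the same line with the Bcl-2 proto-oncogene added, at both times. The sources do not say that the numbered replicates are separate cultures, so p-values measure only the spread between these libraries, which may be technical. In bulk RNA of a population in which cells die, fewer cells of a kind and less RNA per cell cannot be told apart.

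Dex is a synthetic glucocorticoid. It enters the cell and binds the glucocorticoid receptor, the product of Nr3c1, which is held by heat shock chaperones in the cytoplasm, moves to the nucleus and there raises or lowers the transcription of its target genes. In immature T cells and lymphoid tumors this leads to growth arrest and to death by the mitochondrial pathway, in which BH3-only proteins bind the protective relatives of Bcl-2 and release Bax and Bak1. The same hormone class is used against lymphoid leukemias for this reason.

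The deposited values are log2 normalized read counts, and every level and change below is on that log2 scale, a change being the dex mean minus the control mean. Depth per library is unknown from such values, and the transform behind them is not stated. Low genes vary little between libraries in the table, so a fold for a gene with few reads may be understated. A gene was tested when its mean over the 16 S49 (Neo) libraries reached 3.46, the log2 of a count of 10 plus 1, called the filter here, and was called when its adjusted p was under 0.05 by limma. No S49 (Neo) library at 24 h stood apart, the SD of its deviations from its group mean lying between 0.083 and 0.123. Across genes, which are not independent, these deviations followed the GC content of transcripts with Spearman coefficients from -0.245 to 0.263. In the S49 (Neo) libraries at 48 h, which share the fit, the coefficients ran from -0.574 to 0.315. T-cell markers were abundant, with Cd3d, Cd3e, Cd3g, Cd247, Thy1, Lck and Bcl11b above the filter and Cd5 below it. Few markers of other cells were above the filter. Of 13 B cell genes 12 were measured. Cd22, Blnk, Vpreb1 and Vpreb3 were above the filter, 2 of them called higher and 1 lower. Ms4a1 was at 0 in all libraries, while Cd79a, Cd79b, Pax5 and Ebf1 were below the filter. The summed linear level of the B cell genes was 116 to 183 in control and 126 to 141 in dex, against 100310 to 105474 and 100868 to 104380 for the 8 T lineage genes. Of 14 macrophage and granulocyte genes 4 were above the filter, with a summed level of 737 to 880 in control and 832 to 884 in dex, S100a8 and S100a9 at 0, Csf1r, Cd14 and Adgre1 below the filter, Fcgr3 changed by 1.45, Lyz2 changed by -0.79, and Itgam and Cd68 not called. Of 14 stromal, endothelial and epithelial genes only Pecam1 passed, and it fell by 1.07, the summed level going from 1386 to 1506 in control to 670 to 731 in dex, while Kdr was at 0 and Col1a1, Cdh5 and Epcam were below the filter. The part of such cells in the results below was not tested.

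Dex changed the majority of genes tested by a little and a small group by a great deal. Of 11515 genes tested, 3681 were higher and 4127 lower in dex, which is 67.8% in all, 32% higher and 35.8% lower. These shares are the background for every gene group below. At an unadjusted p under 0.01, the threshold used in the study, 3360 genes were higher and 3708 lower, together 61.4%. When all 32 libraries shared the estimate of spread, 5841 of 11562 genes were called at the adjusted threshold. In 7340 genes, or 63.7%, the 4 dex and 4 control libraries did not overlap. Most called changes were small: 5566 of 7808, or 71.3%, were under 0.5, and the median size of a called change was 0.33. Changes of at least 1, a fold of 2 or more, were found in 470 genes that rose, 4.08% of those tested, and in 272 that fell, 2.36%. Together these were 6.44% of the genes tested. Beyond a change of 2 the balance tipped further, with 157 genes up and 45 down. When the test asked for a change beyond 0.5 and not beyond 0, 1285 genes passed, 786 higher and 499 lower. The median change over all genes tested was -0.0192. Of the genes named below, 18 with small or scattered changes lost their call when a single library was left out, namely Bcl2l1, Ccna2, Ccnb1, Ccng1, Cd53, Cox6a2, Dffb, H2-K1, Hspa1a, Max, Mxi1, Nr4a1, Orai1, Psma5, Rbl1, Slc25a4, Spsb1 and Tsc1.

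**Figure D1:**
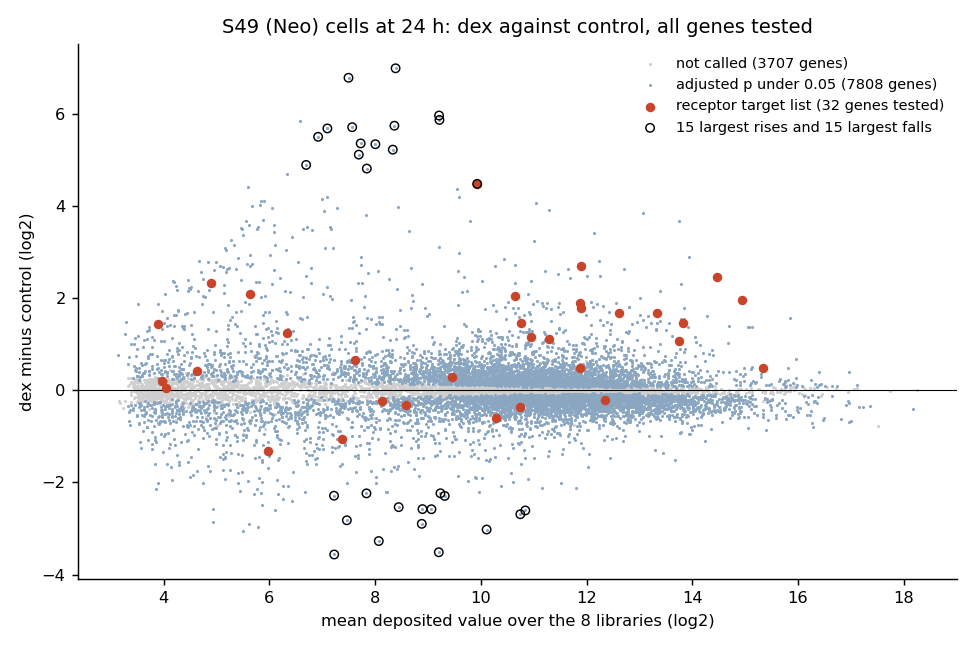
Change in dex against the mean of the 8 libraries for each of the 11515 genes tested in S49 (Neo) cells at 24 h, both axes in log2 units; grey points were not called, blue points were called, red points are the 32 receptor targets tested and rings mark the 15 largest rises and 15 largest falls among called genes with a mean of at least 6.66 and no overlap of the groups. The rises reach 6.997 while the falls reach -3.565.

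The genes named here as the 15 largest rises and falls are those among called genes whose groups did not overlap and whose mean over the 8 libraries was at least 6.66, the log2 of a count of 100 plus 1, leaving out model names, so some larger changes of low genes are not among them. The rises were of genes that control libraries held at a low level and dex libraries at a high one. Trio, a guanine nucleotide exchange factor at chr15:27730651-28025848 of GRCm38, stood at 5.34, 4.78, 4.40 and 5.03 in control and 12.02, 11.74, 11.89 and 11.89 in dex. That was a change of 7.00 ± 0.14 (SE), or 128-fold, with an adjusted p of 1.57e-17, and no dex library came near any control library. Klk4, a secreted serine protease of the kallikrein family at chr7:43881160-43885804, went from 4.50, 3.98, 3.76 and 4.16 to 10.85, 11.03, 10.51 and 11.18, a change of 6.79 ± 0.22. Usp18, which removes the ubiquitin-like protein Isg15 and damps interferon receptor signaling, went from 5.25, 4.65, 4.37 and 4.56 to 10.49, 10.44, 10.61 and 10.16, a change of 5.72 ± 0.17. Smox, spermine oxidase, which breaks down spermine, went from 5.66, 4.93, 5.10 and 5.63 to 10.97, 10.44, 10.74 and 10.56, a change of 5.35 ± 0.19. Mapk13, which encodes p38 delta, went from 4.70, 4.10, 3.93 and 4.28 to 9.99, 9.94, 9.96 and 9.88, a change of 5.69 ± 0.20. In each of these genes the control libraries spread more widely than the dex libraries, and the gap between the groups was many times either spread. Hif3a, a hypoxia-inducible factor family member that lacks most of the activating function of its relatives, started at a higher level, 7.84, 7.39, 7.46 and 8.05, and reached 12.32, 12.08, 12.34 and 11.95, a change of 4.49 ± 0.14.

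The rest of the 15 rises had changes between 4.82 and 5.97. Dsp encodes desmoplakin, a linker of desmosomes to intermediate filaments, and rose by 5.75 ± 0.084, with control libraries between 5.39 and 5.64 and dex libraries between 11.16 and 11.42. Tns3, a tensin that joins integrins to actin, rose by 5.23. Nav2, a neuron navigator protein that binds microtubules, rose by 5.88, and Ptprb, a receptor tyrosine phosphatase best known from endothelium, by 5.51. Kcnip3, which encodes a calcium-binding protein that acts on potassium channels and as the transcriptional repressor DREAM, rose by 4.90 ± 0.18. Vwce, Ppp1r32, Tmc5 and Gramd3 completed the group with changes of 5.97, 5.37, 5.12 and 4.82.

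The falls included genes of T-cell signaling and cell guidance. Rasgrp1, which activates Ras downstream of the T cell receptor and lies at chr2:117279993-117343001, stood at 8.64, 9.0, 8.80 and 9.58 in control and 5.34, 5.43, 5.44 and 5.56 in dex, a change of -3.56 ± 0.19 with an adjusted p of 1.00e-11. Control library 4 was the highest and the dex libraries lay within a narrow range far below. Ccr9, the receptor for the thymic and gut chemokine Ccl25, at chr9:123678439-123784330, fell from 10.84, 11.10, 10.95 and 10.96 to 7.41, 7.79, 7.18 and 7.41, a change of -3.52 ± 0.15. Sema6a and Sema7a, semaphorins that guide axons and also act between immune cells, fell with changes of -3.27 and -2.90. Stc1, stanniocalcin 1, a secreted regulator of calcium and phosphate, went from 11.69, 11.45, 11.62 and 11.71 to 8.72, 8.34, 8.29 and 9.04, a change of -3.02 ± 0.22. Plac8 went from 8.31, 9.29, 9.04 and 8.86 to 5.43, 6.53, 6.04 and 6.22, a change of -2.82 ± 0.22, and its libraries were the most scattered of the group without overlapping.

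Ptprk, a receptor tyrosine phosphatase needed for CD4 T-cell development in rodents, fell by 2.69 ± 0.064. H2-T3, which encodes the nonclassical class I molecule of thymocytes known as TL, fell by 2.61; its family has close copies between which reads can be split, so its value is less certain. Grhl3, a transcription factor of epithelial barrier formation, and Cbfa2t3, a transcriptional corepressor of the ETO family, fell with changes of -2.58 and -2.54. Kcnq1ot1, a long noncoding RNA antisense to Kcnq1, changed by -2.58 while Kcnq1 changed by 2.74. The strand setting of the counting is not given in the sources used here, so reads of this pair may not have been told apart. Necab1, Papss2, Cacng4 and Fsd1 fell with changes of -2.29, -2.29, -2.24 and -2.24. Among them Papss2 makes the sulfate donor of the cell and Cacng4 is a calcium channel gamma subunit.

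**Figure D2:**
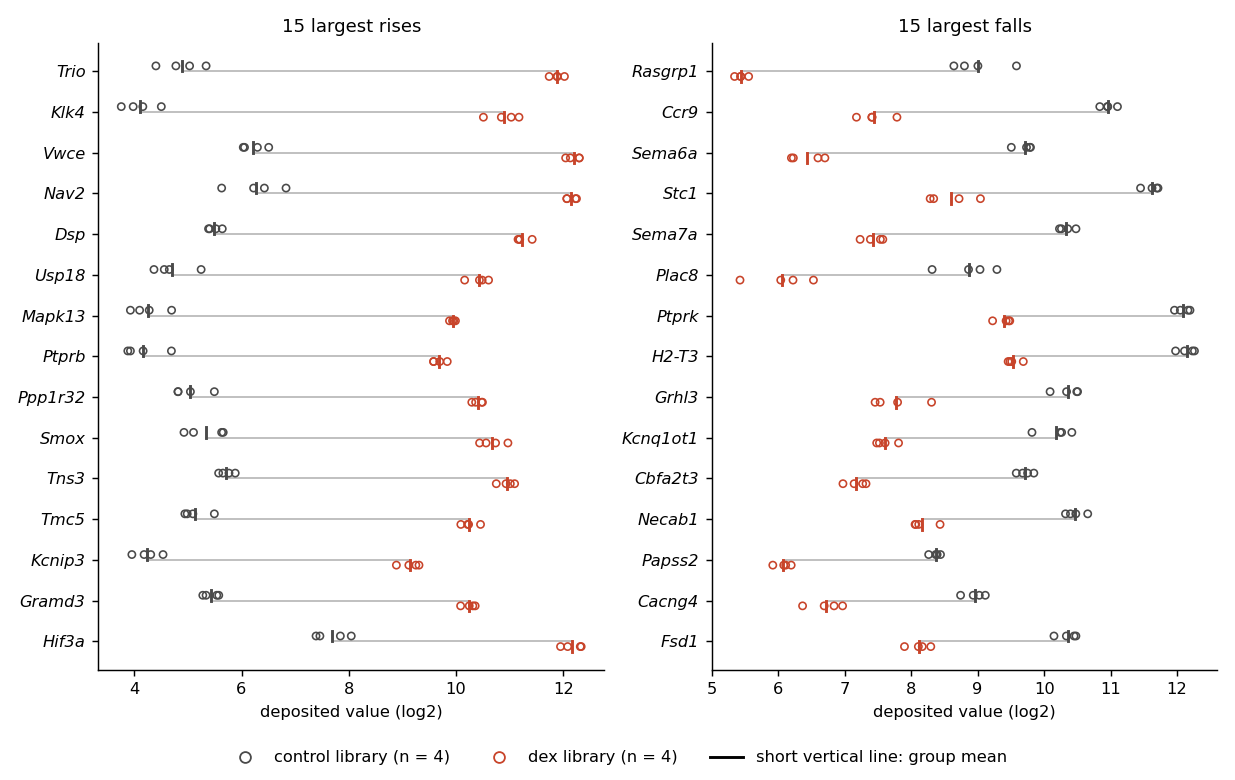
Deposited log2 value of the 15 largest rises (left) and the 15 largest falls (right), among called genes with a mean of at least 6.66 and no overlap, in each of the 4 control (grey) and 4 dex (red) libraries of S49 (Neo) cells at 24 h; short vertical lines are group means. The absence of overlap in the 30 genes is set by how they were chosen. Trio spans 4.40 to 5.34 in control and 11.74 to 12.02 in dex, and Rasgrp1 spans 8.64 to 9.58 in control and 5.34 to 5.56 in dex.

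Known targets of the glucocorticoid receptor were mostly higher in dex. Of 41 genes on the list 32 were tested, 21 were higher, 6 lower and 5 not called, and the median change was 1.136 against -0.019 over all genes, or 0.528 when members below the filter were counted too. Per1, a circadian repressor, went from 10.44, 10.42, 10.51 and 10.81 to 13.21, 13.23, 13.25 and 13.25, a change of 2.69 ± 0.07. Tsc22d3, which encodes the anti-inflammatory protein GILZ, went from 11.63, 11.64, 11.77 and 12.02 to 13.39, 13.45, 13.49 and 13.48, a change of 1.69 ± 0.078. Fkbp5, the cochaperone that feeds back on the receptor, was already among the most abundant transcripts at 15.16, 15.13, 15.04 and 15.03 in control and reached 15.62, 15.60, 15.54 and 15.50, a change of only 0.48 ± 0.042 whose groups still did not overlap. Dusp1, a phosphatase that inactivates MAP kinases, went from 9.76, 9.14, 9.53 and 10.08 to 12.01, 11.20, 11.80 and 11.71, a change of 2.05 ± 0.18. Library 2 was the lowest of its group for Dusp1 in both control and dex.

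Ddit4, an inhibitor of mTORC1 also called REDD1, rose by 1.96 ± 0.13, from 14.13, 13.50, 13.82 and 14.43 to 16.05, 15.80, 15.90 and 15.96. Zfp36l2, which binds AU-rich elements and destabilizes mRNA, rose by 2.45, Sesn1, a sestrin, by 1.89, and Btg1, an antiproliferative gene of B and T cells, by 1.78. Nfkbia, the inhibitor that keeps NF-kB in the cytoplasm, rose by 1.47 and Txnip, which binds thioredoxin and restrains glucose uptake, by 1.45. Klf13 rose by 1.08 and Sgk1, a kinase that acts on ion transport, by 1.11. Zbtb16, a zinc finger repressor also called PLZF, was low throughout, at 3.42, 3.12, 2.99 and 3.19 in control and 4.70, 4.60, 4.72 and 4.47 in dex, a change of 1.44. All its control values lay below the filter, so it passed only through libraries with higher values, and its call rests on them. Zfp36 was not called, at 8.10, 8.03, 8.30 and 8.53 and 8.04, 7.72, 8.06 and 8.23, and its groups overlapped. Klf9 and Il7r, targets in other tissues and in normal thymocytes, lay at the floor of the table in every library and were not tested. The lower members included Cdkn1a, the cell cycle inhibitor p21, with a change of -1.31 at a low level, and Irs2, an adaptor of insulin signaling, with a change of -1.06.

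The receptor binds as a dimer to a palindrome of AGAACA and its reverse complement with any 3 bases between, and the core of that palindrome reads ACANNNTGT, with N for any base. RefSeq promoter windows on GRCm38.p6, from 250 bases before to 50 bases after a start, were matched by symbol for 8871 of the genes tested, and both strands were searched. The core was found in 5.1% of all matched genes, in 5.56% of those called higher, in 9.12% of those higher by at least 1 (32 of 351), in 4.1% of those called lower and in 6.7% of those lower by at least 1. The single arm AGAACA was in 14.6%, 14.5%, 19.1%, 14% and 18.2% of the same groups. The whole palindrome was in 1 gene of all those matched, Sgk1, 186 bases before a start of that gene. These are descriptions of letters, without a test, and receptor sites outside such windows were not searched. Of 28 receptor targets matched, 14.3% held the core and 10.7% the single arm. The windows of 4 called genes that hold the core are printed here 5′ to 3′ on the gene's strand, with the core in capitals, because they show the palindrome and its variants. Only genes called higher were drawn on for this display, so it does not link the core to a rise. The Sgk1 window lies at chr10:21993640-21993939 on the plus strand, that of Txnip at chr3:96557707-96558006 on the plus strand with the core 170 bases before the start, that of Lcn2, a secreted iron-binding lipocalin that rose by 2.33, at chr2:32387690-32387989 on the minus strand with the core 152 bases before, and that of Ppp1r32, from the largest rises, at chr19:10482879-10483178 on the minus strand with the core 7 bases before.
Sgk1: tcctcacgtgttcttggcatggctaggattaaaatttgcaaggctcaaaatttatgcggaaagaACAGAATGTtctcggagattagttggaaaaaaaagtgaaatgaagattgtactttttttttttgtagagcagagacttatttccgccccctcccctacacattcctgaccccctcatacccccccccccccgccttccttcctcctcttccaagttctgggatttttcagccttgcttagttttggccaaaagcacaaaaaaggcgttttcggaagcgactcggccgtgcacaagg
Txnip: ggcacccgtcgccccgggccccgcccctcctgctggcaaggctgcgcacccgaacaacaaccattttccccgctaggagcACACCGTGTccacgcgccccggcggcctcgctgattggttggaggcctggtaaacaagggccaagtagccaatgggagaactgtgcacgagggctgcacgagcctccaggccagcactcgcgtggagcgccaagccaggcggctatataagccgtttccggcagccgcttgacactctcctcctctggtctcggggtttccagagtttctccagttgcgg
Lcn2: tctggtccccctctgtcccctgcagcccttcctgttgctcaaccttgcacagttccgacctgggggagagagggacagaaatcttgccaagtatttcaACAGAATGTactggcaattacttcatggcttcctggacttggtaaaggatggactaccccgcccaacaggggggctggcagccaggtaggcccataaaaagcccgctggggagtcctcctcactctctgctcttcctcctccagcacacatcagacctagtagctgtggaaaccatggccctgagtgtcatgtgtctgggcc
Ppp1r32: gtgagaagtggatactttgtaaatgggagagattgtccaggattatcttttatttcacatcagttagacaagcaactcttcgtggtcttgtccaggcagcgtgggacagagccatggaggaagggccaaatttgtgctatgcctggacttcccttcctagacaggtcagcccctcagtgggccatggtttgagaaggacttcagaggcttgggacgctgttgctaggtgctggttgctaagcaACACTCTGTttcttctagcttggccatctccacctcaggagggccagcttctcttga

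The receptor gene itself was higher in dex. Nr3c1 stood at 13.66, 13.61, 13.64 and 13.72 in control and 14.65, 14.62, 14.64 and 14.66 in dex, a change of 0.98 ± 0.044, or 1.98-fold, with an adjusted p of 1.12e-12 and a gap between the groups many times the spread within them. Nrip1, a corepressor of nuclear receptors, rose by 1.26, and the coactivators Ncoa1 and Ncoa2 by 0.60 and 0.69. The chaperones that fold and hold the receptor went the other way. Hsp90aa1, Ptges3 (p23), Fkbp4 (FKBP52) and Stip1 (HOP) changed by -0.64, -0.33, -0.60 and -0.45. Hdac1 and Hdac2, histone deacetylases found in corepressor complexes, changed by -0.45 and -0.51. Over the 24 genes tested on the list, 8 were higher and 12 lower.

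Among BH3-only genes, the triggers of mitochondrial death, Bmf and Bcl2l11 rose most. Bmf went from 7.38, 7.32, 7.21 and 8.02 in control to 11.72, 11.60, 11.57 and 11.81 in dex, a change of 4.19 ± 0.16, or 18.3-fold, with an adjusted p of 1.40e-13. Control library 4 was the highest of the controls and still far below every dex library. Bcl2l11, which encodes Bim, went from 12.41, 12.32, 12.41 and 12.45 to 13.47, 13.47, 13.50 and 13.57, a change of 1.10 ± 0.04, or 2.15-fold. Bad rose less, by 0.41 ± 0.047, from 9.74, 9.64, 9.71 and 9.70 to 10.08, 10.06, 10.19 and 10.12. Bid and Bbc3 (Puma) were lower, Bid from 12.04, 12.15, 12.04 and 11.88 to 11.71, 11.66, 11.67 and 11.56 and Bbc3 from 8.93, 8.72, 8.82 and 9.09 to 8.47, 8.36, 8.37 and 8.57, changes of -0.38 and -0.45. In none of these genes did the groups overlap. Pmaip1 (Noxa) was below the filter, at 2.78, 2.53, 2.64 and 2.61 and 3.15, 3.08, 2.90 and 3.28, and Bik and Hrk were not tested either.

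The genes that oppose or carry out the same step moved in both directions. Bcl2l2, which encodes the anti-apoptotic Bcl-w, rose by 2.30 ± 0.14 from a low level, 4.11, 4.12, 3.64 and 4.11 in control and 6.33, 6.36, 6.36 and 6.13 in dex. Mcl1 rose by 0.20 ± 0.031 and Bcl2l1 (Bcl-x) fell by 0.16 ± 0.061, at an adjusted p of 0.0249 by limma that became 0.0938 without dex library 1. Bcl2 was not called, with 8.06, 7.91, 7.83 and 8.07 in control, 7.87, 7.90, 7.70 and 8.42 in dex and a change of 0.0025 ± 0.14. Of the pore formers Bax fell by 0.48 ± 0.052 and Bak1 rose by 0.28 ± 0.037. Bok, Bcl2l10, Bcl2a1a, Bcl2a1b and Bcl2a1d were below the filter.

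**Figure D3:**
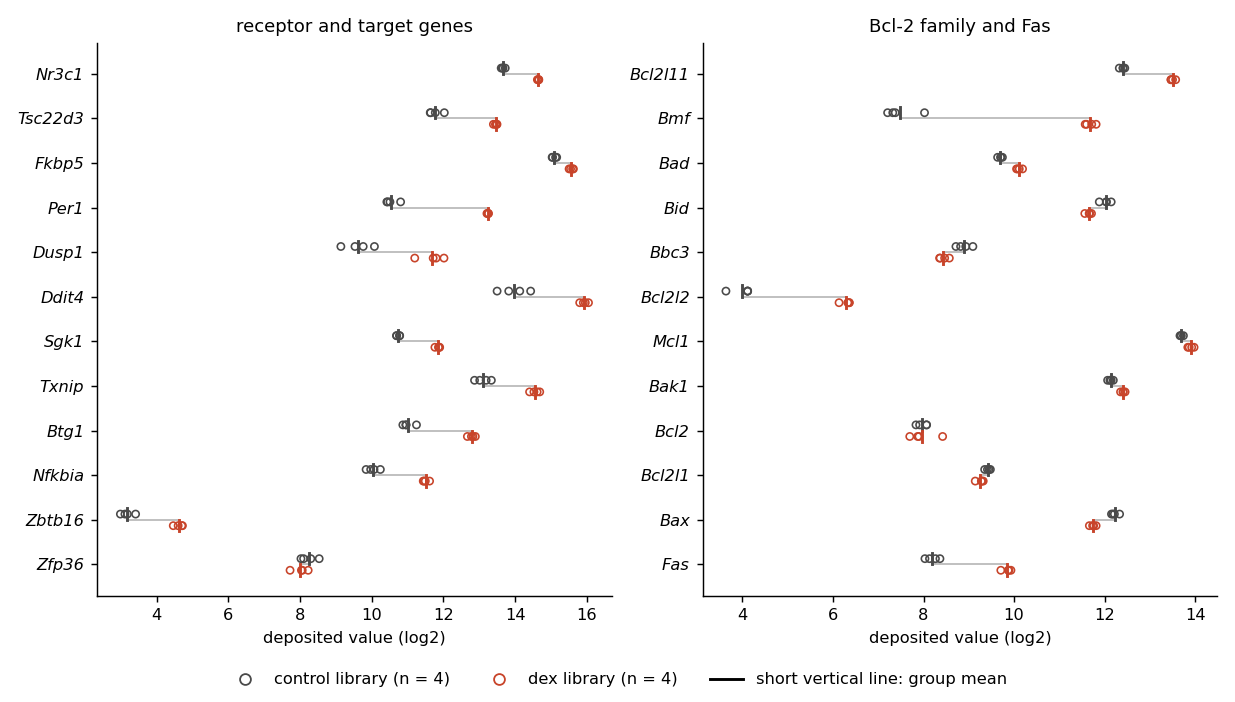
Deposited log2 value of the receptor gene and receptor targets (left) and of Bcl-2 family genes and Fas (right) in each of the 4 control (grey) and 4 dex (red) libraries at 24 h; short vertical lines are group means. Bmf moves from 7.21 to 8.02 in control to 11.57 to 11.81 in dex, while the Bcl2 groups overlap.

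Of the 21 caspase and apoptosome genes tested 7 were higher and 8 lower, shares near the background. Cycs, cytochrome c, fell by 0.71 ± 0.055. Casp2, Casp8 and Parp1 changed by -0.11, -0.22 and -0.25, and Dffb, the nuclease that cuts DNA between nucleosomes, by -0.13 with overlapping groups. Casp1, an inflammatory caspase, rose by 1.17, Birc3, an inhibitor of apoptosis, by 0.79, Fadd, an adaptor of death receptors, by 0.44 and Xiap by 0.21. Casp6, Casp9, Apaf1 and Cflar were not called. Among death receptor genes the directions were mixed as well. Fas, the death receptor, rose by 1.65 ± 0.10, from 8.26, 8.03, 8.13 and 8.36 to 9.87, 9.71, 9.89 and 9.93, while Tnfsf10 (TRAIL) and Tnfrsf1b changed by -0.62 and -0.98. Ripk1 and Tradd rose by 0.34 and 0.37, and Tnfrsf10b and Tnfrsf1a were below the filter.

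Genes that p53 activates were lower more often than higher. Of 19 tested, 13 were lower and 5 higher. Trp53 itself changed by -0.24, Mdm2 by -0.13, Ccng1 by -0.15, Eda2r by -1.22 and Sesn2 by -0.71, and Gadd45a, a growth arrest gene, fell from 10.97, 10.71, 10.83 and 10.82 to 9.06, 8.81, 8.97 and 8.98. The exceptions were Trp53inp1, which promotes autophagy and death and rose by 2.64 ± 0.10, Sesn1 and Fas above, and in addition Btg2 and Ddb2, which were higher and are named after their values were seen. Phlda3 was below the filter.

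The regulators of entry into the cycle were mixed, with 4 genes higher and 4 lower of 10 in the Myc network, 2 and 5 of 11 among G1 genes and 4 and 4 of 12 in the E2F and retinoblastoma families. Myc went from 13.60, 13.58, 13.56 and 13.62 to 13.22, 13.12, 13.24 and 13.23, a change of -0.39 ± 0.032 without overlap. Of its network, the antagonists Mxd4 and Mxd1 rose by 1.18 and 0.42, while Mxi1 fell by 0.27 with overlapping groups and the partner Max by 0.088. Among G1 genes Cdk2 changed by -0.71, Ccnd3 by -0.33, Cdk6 by -0.33 and Ccne2 by -0.26. The inhibitors Cdkn1b (p27) and Cdkn2c (p18) rose by 0.46 and 0.28, and Cdk4, Ccne1, Ccnd1 and Cdkn2d were not called. E2f1 and E2f3 changed by -0.40 and -0.35, and Rbl2, the p130 pocket protein of quiescent cells, rose by 0.75. E2f2, E2f8 and Rb1 were not called, Rbl1 changed by -0.12, and Ccnd2 and E2f7 were below the filter.

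In DNA replication most members were lower, with 42 of 57 genes lower, 73.7% against the background of 35.8%, 4 higher and a median of -0.204. Dut, which removes dUTP, fell by 0.92, Mcm10 by 0.57, Uhrf1 by 0.54, and the helicase subunits Mcm2 and Mcm5 by 0.32 and 0.21. Cdc6, Tyms, Pola1, Pcna and Rrm1 changed by -0.36, -0.32, -0.28, -0.15 and -0.13. Rrm2 was not called, and Gins2, another helicase subunit, went against the group with a rise of 0.86 ± 0.039. Of 47 mitotic genes 25 were lower and 6 higher, and their median change was -0.101. Cdk1 fell by 0.55, Plk1 by 0.35, Aurka by 0.34, Top2a by 0.21, Ccna2 by 0.10 and Ccnb1 by 0.11, whereas Mki67, the proliferation antigen, rose by 0.21 and Bub1b by 0.42. Aurkb was not called. Replication-coupled histone genes were lower in 21 of 40, the rest not being called, with a median of -0.533. Hist1h2ag and Hist1h2an, for example, changed by -0.66 and -0.67. These genes have near-identical copies and mostly lack poly(A) tails, and the libraries were poly(A)-selected, so the values of single members are uncertain. Among 31 genes of homologous recombination and the Fanconi pathway 9 were higher, Brca1 by 0.39 and Rad51d by 0.41, and 15 lower, among them Bard1 and Fancd2 with changes of -0.45 and -0.43. Brca2 was not called.

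Most genes of nucleotide synthesis and ribosome biogenesis were lower. In nucleotide synthesis 26 of 30 genes fell, 1 rose and the median stood at -0.373. Mthfd2, a mitochondrial enzyme of one-carbon metabolism, fell by 1.30 ± 0.056, Psat1 and Phgdh of serine synthesis by 0.91 and 0.83, and Ctps, which makes CTP, by 0.64. Ppat, Cad, Umps, Pfas, Shmt2 and Paics changed by -0.50, -0.48, -0.43, -0.42, -0.45 and -0.19, and Impdh2 was not called. In ribosome biogenesis 70 of 83 genes fell, 1 rose and the median stood at -0.29. The abundant nucleolar proteins Ncl and Npm1 fell by 0.68 and 0.63, Gtpbp4 by 0.65, and Rrn3, which recruits RNA polymerase I, by 0.55. Fbl, Nop56, Nolc1, Bop1 and Ddx21 changed by -0.38, -0.29, -0.39, -0.37 and -0.42, and Gnl3 was not called.

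The ribosomal proteins themselves behaved otherwise. Of 78 cytosolic ones 28 were higher and 8 lower, and the median was 0.053. Rps14 rose by 0.49 and Rps6 by 0.13, Rpl3 fell by 0.14, and Rpl11 and Rps3 were not called. Many have processed pseudogenes that can take reads. Of 77 mitochondrial ones 37 were lower and 8 higher. Translation factors were lower in 27 of 44, with Eif5a at -0.58, the helicase Eif4a1 at -0.53, the cap-binding Eif4e at -0.44, its inhibitor Eif4ebp1 at -0.42, Eif2s1 at -0.42 and Eif3b at -0.36. The list counts Eef1e1, at -1.07 its lowest member, by its elongation factor name, though it is a subunit of the tRNA synthetase complex. Of 20 aminoacyl-tRNA synthetases 18 were lower, Gars by -0.47 for example, and Qars and Vars, the latter named after its values were seen, were higher.

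Protein folding split by compartment. Cytosolic and mitochondrial chaperones fell in 25 of 29 genes, with a median of -0.4. The mitochondrial Hspd1 fell by 0.79, Hsph1 by 0.54, Cct7 of the chaperonin by 0.58 and Hspa8 by 0.33, the last turning to 0.065 after quantile normalization. Hspa1a fell by 0.26 with overlapping groups, Dnajb1 was not called, and the only member that rose, Dnajb4, is named after its values were seen. Genes of the endoplasmic reticulum rose in 20 of 28 and fell in 3, with a median of 0.237. Herpud1, which acts in the degradation of misfolded proteins, went from 12.25, 12.33, 12.29 and 12.32 to 14.40, 14.44, 14.60 and 14.40, a change of 2.17 ± 0.061. Eif2ak3 (PERK), a sensor of misfolded proteins, rose by 0.93, Syvn1, a ubiquitin ligase, by 0.63, Pdia6 by 0.46 and the chaperone Hspa5 (BiP) by 0.23. Ddit3 (CHOP) fell by 0.35, Xbp1 rose by 0.17 with overlapping groups, Hsp90b1 was not called and Dnajb9 was below the filter. The proteasome was lower in 25 of 44 genes and higher in 6. The immunoproteasome subunits Psmb8 and Psmb9 rose by 0.76 and 0.74, the constitutive Psmb5 fell by 0.18 and Psma5 by 0.11, and Psmc4 was not called.

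Metabolic genes fell in several pathways. The Atf4 targets, which supply amino acids under stress, were lower in 21 of 24, with a median of -0.608. Atf4 itself went from 14.35, 14.43, 14.42 and 14.41 to 13.32, 13.54, 13.57 and 13.38, a change of -0.95 ± 0.056. Trib3 fell by 1.30, Chac1 by 0.87, Asns, which makes asparagine, by 0.67, and the amino acid transporters Slc7a11 and Slc7a5 by 0.61 and 0.57. The members that rose were Ddit4 and Gpt2, with changes of 1.96 and 0.87, and Atf3 was below the filter. Cholesterol and fatty acid synthesis was lower in 25 of 31 genes, with a median of -0.536. Hsd17b7 fell by 1.43, Hmgcs1 by 0.79, Fasn by 0.81, Insig1 by 0.45, Sqle by 0.38 and the regulator Srebf2 by 0.15. Nsdhl rose by 0.79 and Abca1 was below the filter.

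Glycolytic genes were lower in 19 of 33 and higher in 1, their median change being -0.357, and several had a wide spread between replicates. Slc2a3, a glucose transporter, stood at 11.60, 10.95, 11.43 and 12.29 in control and 10.19, 9.65, 9.80 and 10.77 in dex, a change of -1.47 ± 0.29, with library 2 lowest and library 4 highest in both groups. Hk2 fell by 0.67 ± 0.14, Pkm by 0.67 and Ldha by 0.54 ± 0.11, and Tkt of the pentose phosphate pathway by 0.58. Slc2a1, Pfkl, Pdk1 and G6pdx were not called. Among hypoxia genes Vegfa stood at -1.34 ± 0.14, Egln3 at -0.99 and Hif1a at -0.62, and Bnip3 was not called at -0.75 ± 0.33. P4ha2, which hydroxylates collagen, rose by 3.55. Oxidative phosphorylation was balanced, with 25 genes higher and 25 lower of 74, and Ndufs4 moved most with a rise of 0.93.

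Of 29 antioxidant genes 17 were lower and 7 higher, Sesn1 and Txnip (above) by the most. Gsr, glutathione reductase, fell by 0.76, Prdx6 by 0.75, Hmox1 by 0.66, Txnrd1 by 0.39, and the superoxide dismutases Sod2 and Sod1 by 0.35 and 0.18. Gclc, Gpx1, Gpx4 and Cat were not called. Of 12 polyamine genes 3 were higher and 6 lower. Srm and Sms, which build spermidine and spermine, fell by 0.63 and 0.91 and the entry enzyme Odc1 by 0.40 ± 0.055, while the catabolic Smox (above) and Sat1 rose, Sat1 by 0.62 ± 0.04. Amd1 and Oaz1 were below the filter. At the mitochondrion Vdac1 and Vdac2, the outer membrane channels, fell by 0.35 and 0.57, Ppif (cyclophilin D) by 0.53 and the calcium uniporter Mcu by 0.25. Its inhibitory partner Mcub rose by 1.01, Tspo by 0.78 and Ucp2 by 0.49, Slc25a4 changed by -0.09 and Slc25a5 was not called.

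Lysosomal and autophagy genes were more often higher than lower. Lysosomal genes rose in 30 of 47, 63.8% against 32% of all genes, and fell in 5, with a median of 0.355. Psap, the precursor of the saposins, went from 15.05, 15.06, 15.01 and 15.13 to 16.65, 16.60, 16.66 and 16.62, a change of 1.57 ± 0.048. Lamp2 rose by 1.46, Sgsh, a sulfatase, by 2.35 from a low level, the protease Ctsd by 0.83, Npc2 by 0.80 and Tpp1 by 0.65. Mcoln1, Lamp1 and Ctsb rose by 0.42, 0.39 and 0.20, and Tfeb, the master regulator, was not called. Autophagy genes were higher in 17 of 33 and lower in 5, with Rb1cc1 at 0.73, Gabarap at 0.64, Map1lc3b at 0.53 and Sqstm1 at 0.40. Wipi1 fell by 0.46, Ulk1 and Bnip3l were not called and Gabarapl1 was below the filter.

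In the PI3K pathway 10 of 16 genes rose and 4 fell. Pik3ip1, an inhibitor of PI3K in T cells, went from 10.00, 10.29, 10.26 and 10.46 to 11.98, 12.10, 12.10 and 12.16, a change of 1.83 ± 0.095. The regulatory subunit Pik3r1 rose by 1.43 and the phosphatases Inpp4a and Inpp5d by 0.95 and 0.76. Pik3cd, the leukocyte catalytic subunit p110 delta, went from 9.53, 9.46, 9.46 and 9.73 to 7.90, 8.22, 8.21 and 7.95, a change of -1.48 ± 0.10, Akt1 changed by -0.28, Akt2 was not called and Inpp4b was below the filter. Of 13 inhibitors of mTORC1 7 were higher and 4 lower. Besides Ddit4 and Sesn1, Sesn3 rose by 0.53, Nprl2 by 0.66 and Tsc1 by 0.11, Sesn2 changed by -0.71, and Deptor was below the filter.

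Channels and pumps moved in both directions. Kcna3, the Kv1.3 potassium channel of T cells, went from 7.73, 7.81, 7.81 and 7.73 to 5.61, 5.50, 5.62 and 5.56, a change of -2.20 ± 0.095. Kcnn4, the calcium-activated potassium channel of T cells, rose by 0.64. Kcnq5 fell by 1.03, Lrrc8a, a subunit of the volume-regulated anion channel, rose by 0.16, Atp1b1 was not called, and Kcnk5 and Slc12a2 were below the filter. The inositol trisphosphate receptors, the calcium release channels of the endoplasmic reticulum, were higher. Itpr1 went from 12.72, 12.67, 12.66 and 12.57 to 13.97, 13.98, 14.07 and 13.88, a change of 1.32 ± 0.045, and Itpr2 and Itpr3 rose by 0.88 and 0.47. The calcium pumps Atp2a2 and Atp2a3, which refill that store, fell by 0.36 and 0.22, and Atp2b1, which exports calcium, rose by 0.19. Stim1 rose by 0.16, Orai1 fell by 0.17 with overlapping groups, Orai3 rose by 0.56, Camk4 rose by 1.01 and Nfatc2 fell by 1.05.

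Genes of T-cell identity moved in both directions. Of 38 genes 16 were lower and 9 higher, 42.1% and 23.7% against 35.8% and 32% of all genes, so not far from the background. Tox and Gata3, transcription factors of CD4 lineage development, fell from 8.98, 9.03, 8.89 and 8.96 to 7.18, 7.11, 6.98 and 7.03 and from 11.73, 11.65, 11.71 and 11.87 to 10.19, 10.15, 10.22 and 10.52, changes of -1.89 ± 0.087 and -1.47 ± 0.10. Rag1 fell by 0.74 and its partner Rag2 rose by 0.57. Cd3d fell by 0.61, Runx1 by 0.57, Lck by 0.45, Tcf7 by 0.37 and Dntt by 0.15, whereas Thy1 rose by 0.51, Ikzf1 by 0.74 and Myb by 0.39. Cd3e, Cd247, Ptcra, Lef1, Bcl11b and Notch1 were not called. In T cell receptor signaling Zap70 rose by 0.57, the restraining phosphatase Ptpn22 by 1.82 ± 0.067 and the ubiquitin ligase Cblb by 0.80. Besides Rasgrp1, Fyn fell by 0.61, Lat by 0.57, Lcp2 by 0.52 and Dgka by 0.86. Prkcq rose by 0.35 and Plcg1 was not called.

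Further chemokine receptors fell besides Ccr9. Ccr4 and Ccr7 changed by -2.08 and -2.02 and Cxcr3 by -1.89, while Cxcr4 rose by 0.54 and Ccrl2, an atypical receptor that does not signal in the usual way, went from 4.65, 4.15, 3.90 and 4.42 to 7.97, 7.59, 8.01 and 7.96, a change of 3.60. Both Ccr7 and Cxcr3 were low genes with a mean over the S49 (Neo) libraries under 6.66. In dex Cxcr3 lay at 3.49 to 3.59, near the filter of 3.46. Itgb7 fell by 0.51. S1pr1, Itga4 and Cd44 were below the filter. Klf3 fell by 1.93 and Klf12 rose by 2.66, Klf2 and Klf6 were not called and Klf4 was below the filter. Among cytokine receptors Il2ra changed by -1.38 ± 0.23 and Il6st by -0.51, and Il17ra, Il10rb, Ifngr1 and Tgfbr2 rose by 1.04, 0.99, 0.66 and 0.29. Il2rg and Socs3 were not called, and Il4ra, Socs2 and Cish were below the filter.

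Of 17 NF-kB subunits and inhibitors 7 were higher and 5 lower, near the background. Besides Nfkbia, Nfkbie rose by 2.05, Traf3, which restrains the noncanonical arm, by 1.5 and Tnfaip3 (A20) by 0.83. Relb fell by 0.86, Rel rose by 0.32, and Nfkb1 and Rela were not called. Of the immediate early genes Nr4a1 stood at 10.46, 9.52, 10.26 and 11.30 in control and 9.67, 9.01, 9.48 and 9.84 in dex, a change of -0.88 ± 0.30 whose groups overlapped. Fos and Junb were not called, Maff rose by 1.6, Ier3 fell by 1.27, and Jun and Egr1 were below the filter.

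Interferon-stimulated genes were higher in 19 of 36 and lower in 7. Besides Usp18, Mx2 went from 5.50, 5.36, 5.28 and 5.10 to 9.25, 9.33, 9.39 and 9.09, a change of 3.96 ± 0.10, Isg20 rose by 2.66, Ifit1 by 2.10, Mx1 by 1.4, Isg15 by 1.10 and Irf7 by 0.65. The transcription factors Irf1 and Irf9 were not called, with changes of -0.11 and -0.11, nor was Ifit3. In class I antigen presentation the light chain B2m went from 14.42, 14.47, 14.39 and 14.47 to 15.80, 15.76, 15.77 and 15.90, a change of 1.37 ± 0.042. The peptide transporter genes Tap2 and Tap1 rose by 1.80 and 1.22 and the transactivator Nlrc5 by 0.70. The heavy chains H2-K1 and H2-D1 fell by 0.18 and 0.26 and the nonclassical H2-T22 by 1.16.

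Of 16 clock genes 4 were higher and 6 lower, 25% and 37.5% against 32% and 35.8% of all genes, so not far from the background. Per2, next to Per1, rose by 2.25 from a low level, Nfil3 by 1.4 and Arntl by 0.47. Ciart fell by 1.05 and Nr1d1 by 0.64. Cry1, Dbp and Bhlhe40 were not called. In the p38 pathway Mapk14 rose by 0.43, Map2k6, which activates p38, fell by 1.15, Map2k3 fell by 0.18, Mapkapk2 rose by 0.27 and Gadd45b rose by 1.86 where Gadd45a fell. Mt2, a metallothionein, rose by 1.25, Mtf1 and Slc30a1 changed by -0.19 and -0.32, Slc39a10 was not called and Mt1 was below the filter. Genes of DNA methylation and Polycomb were lower in 15 of 22 and higher in 1, with Tet1 at -0.91, Tet3 at -0.68, Dnmt3b at -0.47, Dnmt1 at -0.40 and Dnmt3a at -0.16, while Ezh2, Ezh1 and Tet2 were not called.

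**Figure D4:**
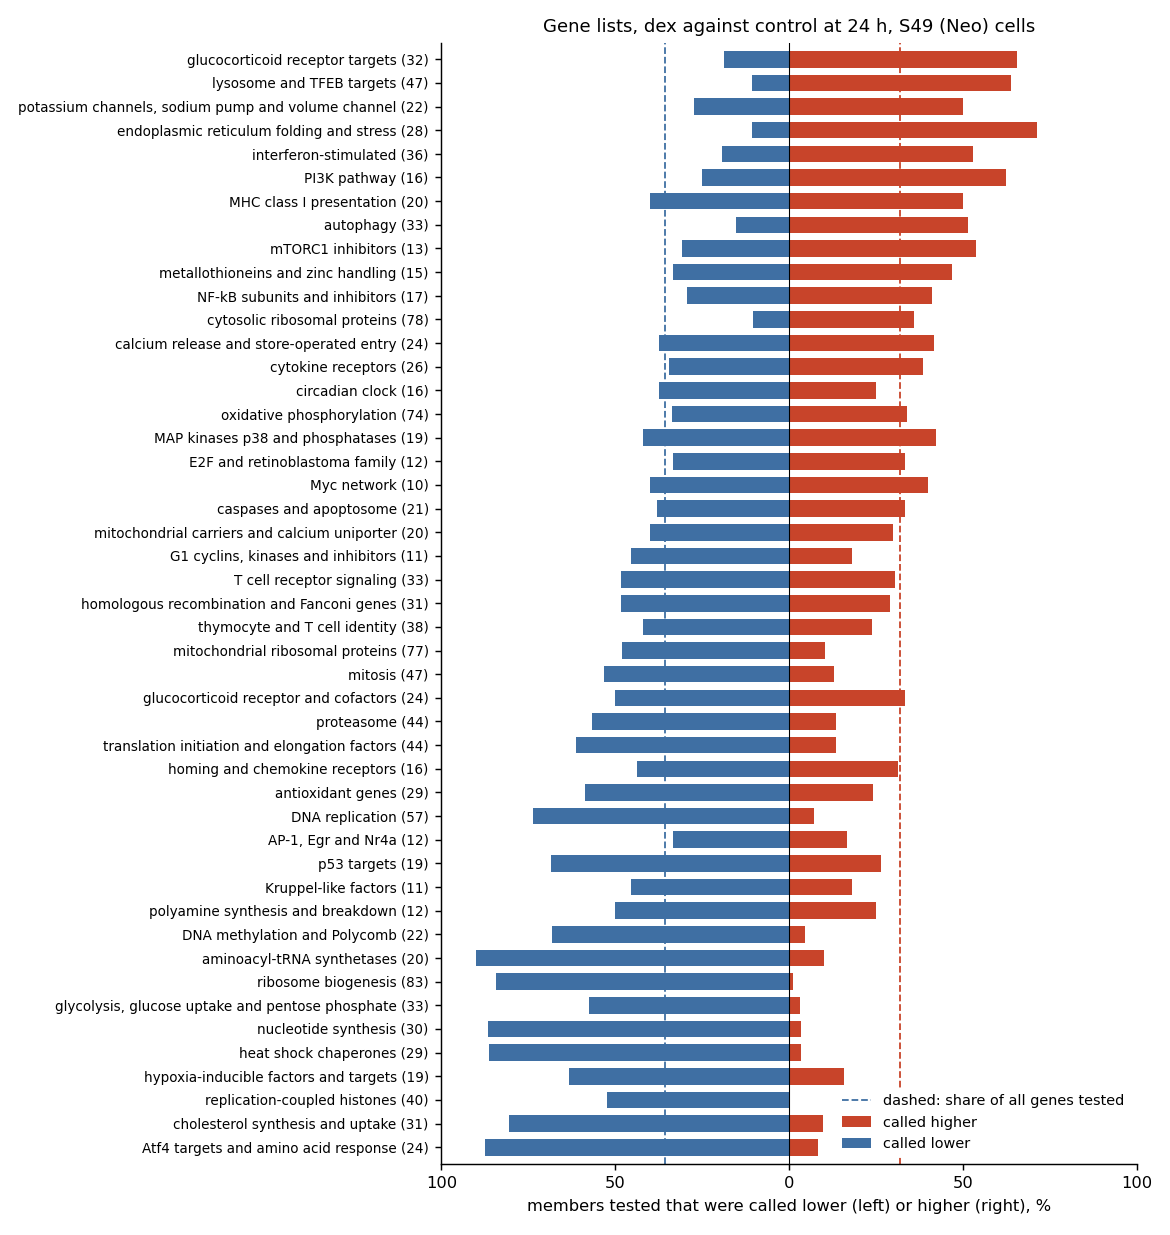
Share of the members tested that were called higher (red, right) or lower (blue, left) in dex at 24 h for each gene list with at least 10 genes tested, ordered by median change; the number tested is in parentheses and dashed lines are the shares of all 11515 genes, 32% higher and 35.8% lower. Ribosome biogenesis (84.3% lower) and lysosomal genes (63.8% higher) lie far from those lines, oxidative phosphorylation on them.

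The response at 24 h was then set beside that at 48 h in the same line, by testing the difference of the changes themselves, 48 h minus 24 h. Both use the 24 h libraries, so the difference is not independent of the values above. It was called in 4762 of 11515 genes (41.4%), 2445 with a more positive and 2317 with a more negative change at the later time. When all 32 libraries shared the estimate of spread it was called in 2225, 1008 more positive and 1217 more negative. Among genes with a mean of at least 6.66, Trio, Vwce and Kcnip3 went further up, from changes of 7.00, 5.97 and 4.90 at 24 h to 8.56, 7.66 and 6.50. St6galnac2, a sialyltransferase, and Pde10a, a phosphodiesterase, did the same, from 3.54 to 5.17 and from 1.71 to 3.33. Cbfa2t3 was less far down, -0.74 against -2.54. Smox was less far up, 3.33 against 5.35. Cd53, a tetraspanin of leukocytes, changed by 0.74 at 24 h, where its groups overlapped, and by -1.64 at 48 h. P2rx3, an ATP-gated channel, Cox6a2, Nr4a1 and Ms4a6b were further down at 48 h, with differences of -2.34, -2.25, -2.17 and -1.99.

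By group, the differences between times were of opposite kinds. Of 83 ribosome biogenesis genes 78 had a more positive change at 48 h and the rest were not called, against 21.2% more positive and 20.1% more negative among all genes, and the median went from -0.29 to 0.074. Of 78 cytosolic ribosomal protein genes 57 were more positive at 48 h, as were 31 of 44 translation factors. Cholesterol genes went the other way, 30 of 31 being more negative, with a median of -0.536 at 24 h and -1.641 at 48 h. So did 23 of 24 Atf4 targets, with medians of -0.608 and -1.234, and 20 of 33 glycolytic genes, of which 2 were more positive. Receptor targets had 5 more positive and 15 more negative of 32.

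The 24 h response was also set beside that of S49 (Bcl-2) cells at the same time. In those cells dex library 3 stood apart, its deviation from the other dex libraries having an SD of 0.766 against 0.133 to 0.175 for the others and following the GC content of transcripts across genes with a Spearman coefficient of 0.801, a correlation across genes, which are not independent. The difference, Neo minus Bcl-2, was called in 2254 of 11562 genes (19.5%) with that library and in 4145 of 11561 without it. Differences of named genes and counts of calls are therefore given both ways. Changes in S49 (Bcl-2) cells alone also depend on that library, and they include it unless stated. The genes named here have the largest differences at a mean of at least 6.66. Klk4 rose more in S49 (Neo) cells, 6.79 against 4.07, a difference of 2.72, or 2.64 without the library. Adam19, a metalloprotease, rose by 0.24 in S49 (Neo) cells against a change of -1.97 in S49 (Bcl-2) cells, a difference of 2.21 (2.24 without). P2rx1, Ptcra and Tle6 differed in the same direction, by 2.47, 1.74 and 1.74 (2.46, 1.80 and 1.88 without). Ifi202b, of a family with close copies, fell less in S49 (Neo) cells, with a difference of 1.85 that dropped to 1.08 without the library. In the other direction Epha2, an ephrin receptor, rose by 0.93 against 3.29, a difference of -2.36 (-2.20 without), and Card6, Tspan9, Spsb1, P2rx3 and Plac8 differed by -2.12, -1.89, -2.01, -2.05 and -1.83 (-2.21, -1.78, -1.83, -2.09 and -1.94 without).

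Among BH3-only genes Bbc3 differed between the lines, falling by 0.45 in S49 (Neo) cells against a change of 1.08 in S49 (Bcl-2) cells, a difference of -1.53 with an adjusted p of 4.38e-07 (-1.46 without the library). Without the library Bid was called too, with a difference of 0.42. Of the 6 genes of anti-apoptotic relatives, Bax and Bak1, 0 were more positive and 1 more negative in S49 (Neo) cells, or 1 and 2 without the library. Of 21 caspase and apoptosome genes these were 5 and 1, or 5 and 7. Casp1, Fas and Fadd differed by -0.82, -0.62 and 0.38 without the library. Bmf and Bcl2l11 changed by 4.19 and 1.10 against 4.57 and 1.00, differences not called at adjusted p-values of 0.431 and 0.387, which do not show that the lines are alike. Without the library these were still not called, at adjusted p-values of 0.384 and 0.603 by limma. Nr3c1 changed by 0.98 against 1.03 with the library, a difference not called at an adjusted p of 0.885, and against 1.30 without it, a difference of -0.32 that was called at an adjusted p of 0.00184. By group, the lines differed in genes of growth and in other lists given below. Of 57 DNA replication genes 35 had a more positive change in S49 (Neo) cells and the rest were not called, against 8.51% more positive and 11% more negative among all genes. Without the library 52 were more positive and 1 more negative, against 18.5% and 17.4%. Their median change was -0.204 in S49 (Neo) cells and -0.534 in S49 (Bcl-2) cells without the library. Of 47 mitotic genes 14 were more positive with the library and 32 without it, and of 83 ribosome biogenesis genes 25 and 60. Receptor targets leaned the other way, with 2 more positive and 11 more negative in S49 (Neo) cells, or 2 and 12 without the library. Lysosomal genes did so too, with 1 and 15, or 2 and 19. Of 24 Atf4 targets 13 were more negative in S49 (Neo) cells, or 12 without the library. Of 19 p53 targets 0 were more positive and 7 more negative, or 2 and 13 without the library. Their median change was -0.219 in S49 (Neo) cells and 0.146 in S49 (Bcl-2) cells without the library. Heat shock chaperones were more positive in 16 of 29, or 24 without the library, and more negative in 0. Proteasome genes were more positive in 11 of 44, or 28, and more negative in 1 both ways.

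**Figure D5:**
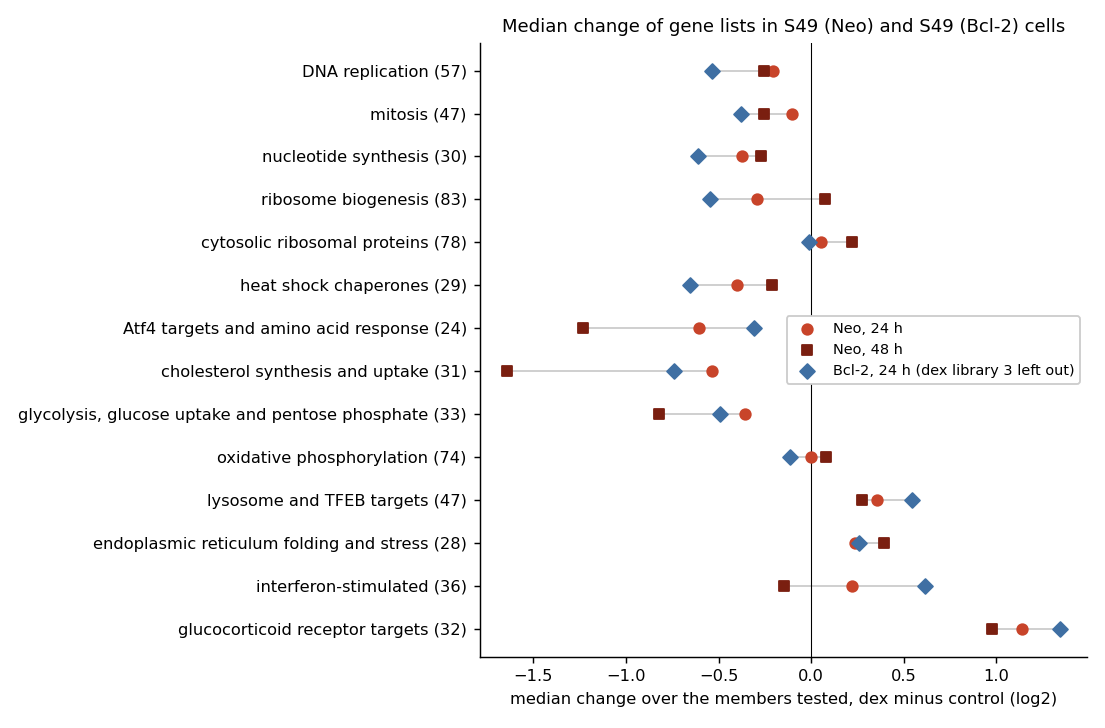
Median change in dex (log2) over the members tested of 14 gene lists in S49 (Neo) cells at 24 h (circles), S49 (Neo) cells at 48 h (squares) and S49 (Bcl-2) cells at 24 h without dex library 3 (diamonds); the number tested in S49 (Neo) cells is in parentheses. Cholesterol genes lie at -0.536, -1.641 and -0.74, and ribosome biogenesis at -0.29, 0.074 and -0.544.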

How the data were processed

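RNA of 32 samples labelled by line, treatment and time was sequenced as poly(A)-selected libraries. Per the labels the authors aligned reads to mm10 with STAR, counted them with featureCounts and normalized with DESeq2. The deposited values are log2 normalized counts of 24538 genes, of which 4872 were 0 in all libraries, and the transform is not given in the sources used here. No raw count could be recovered, so the depth per library is unknown and no counting interval was possible. The 26 gene names that had turned into dates are not named.

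Changes were tested with limma 3.58.1 in R 4.3.3 (trend, 1 mean per group, 16 S49 (Neo) libraries; all 32 for the line difference), with Benjamini-Hochberg adjustment over all genes with a mean of at least 3.46 on the log2 scale and a threshold of 0.05. The fit was tested on simulated data. Alternatives were the filter, the libraries used, median centring, quantile normalization, no trend, robust fitting, array weights, a GC correction, a replicate block, a test against 0.5 and leaving out each library.

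The text names the 15 largest rises and falls among called genes with a mean of at least 6.66 and no overlap of the groups, the 6 largest each way for the differences between times and lines among called genes with the same mean, model names left out, the marked members of each list with up to 4 more of smallest p, and the BH3-only and anti-apoptotic genes. Genes outside this rule were chosen after their values were seen: Btg2, Cd3g, Ddb2, Dnajb4, Lcn2 and Vars. The members and lists were chosen with earlier results of these data known, so no list is independent evidence. The 53 lists were drawn up by hand from general knowledge, and not every list is described. Gene positions are from GENCODE on GRCm38 and promoter sequences from RefSeq. Some genes that this rule names are not reported here. Near-identical gene copies and antisense pairs can share reads.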

Additional observations from a re-analysis of the deposited data

Results flagged for a closer look

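Of the 832 sets of 4 libraries looked at, control or dex, of the genes named, 33 (3.97%) had a library whose gap to the nearest other exceeded the 95% critical value of Dixon's test as a share of the whole range, which chance passes in about 1 of 20 sets. Apart in control library 1 were Cat at 13.67 against 13.50 to 13.52, Cflar at 9.99 against 10.32 to 10.34, Kcnn4 at 12.61 against 12.50 to 12.51 and Map1lc3b at 11.24 against 11.33 to 11.35. Further from the others in control library 1 were Slc30a1 at 11.37 against 11.21 to 11.23, Socs3 at 12.18 against 12.03 to 12.05 and Tap2 at 12.98 against 12.92 to 12.93. Apart in control library 3 was Bcl2l2 at 3.64 against 4.11 to 4.12. Apart in control library 4 were Akt2 at 12.43 against 12.37 to 12.38, Brca1 at 12.26 against 12.23, Brca2 at 11.49 against 11.61 to 11.64 and Camk4 at 12.83 against 12.89 to 12.90. Further from the others in control library 4 were Ptcra at 10.71 against 11.06 to 11.13, Rag1 at 14.30 against 14.53 to 14.56, Relb at 9.34 against 8.97 to 9.02 and Traf3 at 12.58 against 12.66 to 12.67. Further from the others in control library 4 was Trp53inp1 at 11.78 against 11.21 to 11.31. Apart in dex library 1 were Akt1 at 13.71 against 13.63 to 13.65 and Cox6a2 at 5.86 against 6.21 to 6.22. Apart in dex library 2 were Ccrl2 at 7.59 against 7.96 to 8.01, Ifit1 at 8.65 against 7.81 to 7.93 and Myc at 13.12 against 13.22 to 13.24. Apart in dex library 3 were Dsp at 11.42 against 11.16 to 11.19 and Orai3 at 10.59 against 10.49 to 10.50. Apart in dex library 4 were Bcl2l2 at 6.13 against 6.33 to 6.36, Bnip3l at 11.80 against 11.15 to 11.26, Cd53 at 9.16 against 8.34 to 8.37 and Cxcr3 at 3.49 against 3.58 to 3.59. Further from the others in dex library 4 were Eif5a at 15.52 against 15.65 to 15.66, Gtpbp4 at 12.36 against 12.45 to 12.47, Necab1 at 8.43 against 8.06 to 8.11 and Nfkb1 at 13.46 against 13.38 to 13.39. Further from the others in dex library 4 was Sod1 at 13.85 against 13.89 to 13.90.

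The response differed between 24 h and 48 h in S49 (Neo) cells, by the test of the difference itself, in the genes that follow, each with its change at 24 h, its change at 48 h and the difference. Cbfa2t3 went from -2.54 to -0.74, a difference of 1.79, and Cd53 went from 0.74 to -1.64, a difference of -2.39. Cox6a2 went from -0.36 to -2.61, a difference of -2.25, and Kcnip3 went from 4.90 to 6.50, a difference of 1.6. Ms4a6b went from -1.26 to -3.25, a difference of -1.99, and Nr4a1 went from -0.88 to -3.05, a difference of -2.17. P2rx3 went from -1.21 to -3.55, a difference of -2.34, and Pde10a went from 1.71 to 3.33, a difference of 1.61. Smox went from 5.35 to 3.33, a difference of -2.02, and St6galnac2 went from 3.54 to 5.17, a difference of 1.63. Trio went from 7.00 to 8.56, a difference of 1.57, and Vwce went from 5.97 to 7.66, a difference of 1.69.

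The response at 24 h differed between S49 (Neo) and S49 (Bcl-2) cells in the following genes, each with the changes in S49 (Neo) and in S49 (Bcl-2) cells and the difference, with all 32 libraries. The differences without dex library 3 of S49 (Bcl-2) cells are in the report. Adam19 changed by 0.24 against -1.97, a difference of 2.21, and Bbc3 changed by -0.45 against 1.08, a difference of -1.53. Card6 changed by 0.81 against 2.93, a difference of -2.12, and Epha2 changed by 0.93 against 3.29, a difference of -2.36. Ifi202b changed by -1.47 against -3.32, a difference of 1.85, and Klk4 changed by 6.79 against 4.07, a difference of 2.72. P2rx1 changed by 0.24 against -2.24, a difference of 2.47, and P2rx3 changed by -1.21 against 0.84, a difference of -2.05. Plac8 changed by -2.82 against -0.99, a difference of -1.83, and Ptcra changed by 0.27 against -1.47, a difference of 1.74. Spsb1 changed by -0.26 against 1.74, a difference of -2.01, and Tle6 changed by -0.56 against -2.30, a difference of 1.74. Tspan9 changed by 0.92 against 2.82, a difference of -1.89.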

How the results depend on the processing

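Against 7808 calls at 24 h, 6869 genes were called with a filter set at a count of 100, 8118 with no filter on low values, 8014 from the 8 libraries alone, 5841 from all 32 libraries, 7947 after median centring (41.6% of them higher against 47.1% in the reported values), 7841 after quantile normalization, 8372 with array weights and 7997 with a GC correction. Leaving out each of the 8 libraries in turn gave 7459 to 7651 calls, and 6655 to 6887 genes at an unadjusted p under 0.01. Asking for a change beyond 0.5 gave 1285 calls against 7808. The difference between 24 h and 48 h was called in 4762 genes, in 4142 to 4950 without single libraries and in 2225 when all 32 libraries shared the estimate of spread. With 31 libraries, leaving out dex library 3 of S49 (Bcl-2) cells, it was called in 4602. The difference between the lines was called in 2254 genes, in 4145 without that library, in 5368 with array weights, in 3953 with the replicate block and GC correction together and in 1754 to 2174 without single S49 (Neo) libraries. Of the 4145, 2171 were among the 2254 with the same direction.

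Control and dex libraries of the same number deviated together with correlations of 0.245, 0.353, 0.051 and 0.478, below 0.1 in library 3, and 3 of 4 controls correlated best with the dex library of their own number, a hint from the data and not from the design, so the numbers were not taken as pairs. With the replicate number as a block, 8317 genes were called at 24 h, 5849 for the difference between times and 2688 for the difference between lines, and with the block and a GC correction 8365, 5968 and 3953. The block alone added a call to 21 of the genes named, Zfp36 among them, and ended none.

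Of the genes named, 348 were called, and 39 of these lost the call and 40 others gained one under some alternative. Besides the 18 genes given below, 21 lost the call, 20 of them when all 32 libraries shared the estimate of spread and 4 after quantile normalization, namely Atp2b1, Casp2, Ccne2, Ddit3, Dntt, Eif4e, Lrrc8a, Mcl1, Mki67, Paics, Pcna, Pola1, Psmb5, Ptges3, Rag2, Rel, Rpl3, Rrm1, Srebf2, Top2a and Xiap. Only Hspa8 turned its direction, to 0.065 after quantile normalization, where it was not called by limma (adjusted p = 0.539). Of 688 list medians recomputed, 601 moved by less than the spread set for them, 86 moved more and 1, that of the cytokine receptors, turned to -0.02 after median centring by more than that spread. A median near 0 took the other sign in 20 of the 688, from 8 lists (calcium release, caspases, circadian clock, cytokine receptors, macrophage markers, MAP kinases, the Myc network and oxidative phosphorylation), none of these medians exceeding 0.043 in size, or 0.065 as reported. Leaving out 1 library ended the call of 18 genes; for each, the library whose absence raised the p most is given with the change and the limma adjusted p without it. Without control library 1 these were Ccng1 (-0.128, 0.0556), H2-K1 (-0.151, 0.0848), Tsc1 (0.09, 0.0635). Without control library 2 it was Max (-0.071, 0.0699). Without control library 4 these were Cox6a2 (-0.25, 0.136), Nr4a1 (-0.578, 0.0614), Rbl1 (-0.102, 0.0511). Without dex library 1 these were Bcl2l1 (-0.125, 0.0938), Slc25a4 (-0.071, 0.0827), Spsb1 (-0.201, 0.129). Without dex library 2 these were Hspa1a (-0.168, 0.151), Mxi1 (-0.209, 0.072). Without dex library 3 it was Orai1 (-0.152, 0.0853). Without dex library 4 these were Ccna2 (-0.08, 0.0772), Ccnb1 (-0.075, 0.17), Cd53 (0.544, 0.0783), Dffb (-0.096, 0.106), Psma5 (-0.084, 0.0595). The cause of these shifts was not tested. Depth is unknown, so what depth limits cannot be given in reads, and low genes are limited by the filter.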
